A study of Mus musculus with 4 samples.

Results

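Among the cells dissociated from mouse hearts at embryonic day (E) 10.5, a small set of mesenchymal cells carried *Prrx1* together with *Rgs5* or *Crabp1*, and is called *Rgs5*/*Crabp1* mesenchyme here. A barcode, which stands for 1 cell, was kept in the analysis when it had at least 1500 genes and at most 10% mitochondrial unique molecular identifiers (UMIs, 1 per captured transcript). Of 30415 kept barcodes, 731 were chosen: at least 1 *Prrx1* UMI, at least 2 UMIs of *Rgs5* and *Crabp1* together, no *Epcam* or *Barx1* UMI, and not both *Dkk2* and *Mab21l2*. They also had, in UMIs per 10,000, *Hapln1* under 3, *Tnnt2* under 15, *Hbb-y* under 500, *Pecam1*, *Cdh5* and *Ecscr* together under 2, and *Upk3b* and *Upk1b* together under 3. In mm10 *Rgs5* lies on chromosome 1 (chr1:169655501-169695813) and *Crabp1* on chromosome 9 (chr9:54764748-54773110). All 15 of these genes chose the cells, so their values describe the choice and are not results.

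The cells came from 4 droplet libraries of hearts dissected with the whole cardiogenic region. Libraries 5 and 7 were controls with both *Tie2* alleles floxed and no Cre named in their labels (Tie2fl/fl). Libraries 6 and 8 were *Tie2-cko* (Nfatcre-Tie2fl/fl), in which a knock-in *Nfatc1* Cre, active in endocardial cells, deletes *Tie2*; cushion mesenchyme, which forms from endocardium, can descend from such cells. The sources used here give embryos of either sex on a background of C57/BL6 mixed with 129, and a pair of hearts of each genotype from a single litter, but not whether each library is 1 heart, so the spread between libraries may be partly technical. The 731 cells comprised 226 of control library 5, 158 of control library 7, 91 of *Tie2-cko* library 6 and 256 of *Tie2-cko* library 8, with median depths of 15686, 11738, 27779 and 12851 UMIs per cell in that order and total counts of 3872821, 1962587, 2628285 and 3551510 UMIs over the class. They were compared with 956 cells of *Hapln1*-high mesenchyme, which met the same exclusions, had *Prrx1* and had *Hapln1* of at least 3, with no condition on *Rgs5* or *Crabp1*.

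The libraries were not alike apart from genotype. *Tek*, which encodes TIE2, averaged, in UMIs per 10,000 over endothelial cells, 0.751 in library 5 and 1.17 in library 7, which are controls, but 0.31 in library 6 and 0.222 in library 8, so the groups did not overlap and the order matched the labels. In the *Rgs5*/*Crabp1* mesenchyme *Tek* was at most 0.0299 in any library, and *Nfatc1* at most 0.036. Library 5 held cells with *Xist* and cells with Y-linked transcripts, 749 and 2245 of its 3404 cardiomyocytes, and 12 of its 226 *Rgs5*/*Crabp1* cells had *Xist*. Both kinds of transcript were found in 233 of these cardiomyocytes and in 7 of those 12 *Rgs5*/*Crabp1* cells. In library 7, 0 of 158 such cells had an *Xist* UMI, which allows a share of up to 1.9%; library 6 had 1 of 91 and library 8 had 0 of 256, which allows up to 1.17%. These limits cover counting error only and bound cells with an *Xist* UMI, not cells that express it. No barcode sequence was shared between libraries among the 731 cells.

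Mesenchyme next to the outflow and inflow of the E10.5 heart is fed by several sources. Neural crest cells migrate through the pharyngeal arches, lose their early regulators such as *Sox10* and *Foxd3*, and form arch ectomesenchyme and the smooth muscle of the arch arteries. Second heart field and splanchnic mesoderm, marked by *Isl1*, *Tbx1* and *Foxf1*, lie behind the heart, while cushion mesenchyme forms inside it from endocardium and makes a *Vcan*-rich and *Hapln1*-rich matrix. *Crabp1* binds retinoic acid in the cytoplasm, *Rgs5* damps G protein signals in mural cells, and *Prrx1* is a homeobox gene of embryonic mesenchyme.

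Of the 6 markers given for a pharyngeal and neural-crest-like mesenchyme, 3 were outside the choice of cells: *Cxcl12*, *Hand1* and *Mfap4*. A level is from here on the mean over cells of UMIs per 10,000, given for libraries 5, 6, 7 and 8 in that order. *Cxcl12*, a chemokine that guides migrating cells, had levels of 1.93, 0.979, 2.98 and 2.41 in the *Rgs5*/*Crabp1* mesenchyme and 0.144, 0.0424, 0.0928 and 0.0945 in the *Hapln1*-high mesenchyme. *Hand1*, a transcription factor of arch and lateral mesoderm, had 1.62, 1.06, 2.38 and 1.38 against 0.19, 0.247, 0.165 and 0.179. *Mfap4*, a microfibril protein, had 1.07, 1.05, 1.18 and 1.5 against 0.473, 0.438, 0.394 and 0.418. For all 3 genes each library of the first class lay above each library of the second, and library 6 was the lowest of the first class. At least 1 UMI of the 3 was found in 90.7%, 73.6%, 93.7% and 95.7% of the *Rgs5*/*Crabp1* cells, in 54.1%, 69%, 45.9% and 50.5% of the *Hapln1*-high cells, and in 71.9%, 75.9%, 67.7% and 69.4% of the deeper cardiomyocytes.

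Counted in 1 random thinning to 5000 UMIs a cell, *Cxcl12* was found in 40.4%, 25.6%, 63.1% and 49.2% of the *Rgs5*/*Crabp1* cells and in 59.7%, 42.9%, 81.0% and 66.4% before thinning. Red blood cells, which should lack *Cxcl12*, gave 1.90%, 0.611%, 1.32% and 3.13% at 5000 UMIs, at unthinned median depths of 35079, 62884, 25923 and 35592 UMIs. Before thinning, at least 1 of the 3 markers was found in most *Rgs5*/*Crabp1* cells, but also in most cardiomyocytes, so this share does not set the cells apart. *Sox10* and *Foxd3*, early regulators of neural crest, had levels below 0.05 outside library 6. The cells are therefore called by their leading genes.

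The steps of the choice removed cells unevenly. *Prrx1* was found in 4682 kept barcodes, and 2277 of these had 2 UMIs of *Rgs5* and *Crabp1*; *Hapln1* then removed 321, *Tnnt2* 517, *Barx1* 345 and the *Dkk2* and *Mab21l2* pair 136. Among the 731 cells, 647 had *Crabp1*, 400 had *Rgs5* and 316 had both. Cells just inside the threshold, with exactly 2 UMIs, had mean levels over libraries of 1.81 for *Cxcl12* and 1.42 for *Hand1*. Cells just outside it, with 1 UMI, had 1.68 for *Cxcl12* and 1.02 for *Hand1*, and cells with 0 UMIs had 1.07 and 0.389. For *Cxcl12* the cells on either side of the threshold were thus close, and 328 *Prrx1* cells with 0 or 1 UMI met every other condition.

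Against the *Hapln1*-high mesenchyme, 122 of 8031 genes were at least 2-fold higher with all 4 libraries above all 4 of the other class (1.52% of the genes compared), and 183 were lower in the same way (2.28%). Because both classes were defined by gene levels in these same cells, this is a description with no test, and nothing is read from the percentages. The genes compared had a mean level of at least 0.1 in 1 class or both, and folds have 0.1 added to both levels. A gene that reached 0.1 in 1 class alone could only be called higher in that class. List counts between the classes given below stand beside these 1.52% and 2.28%, with no test. Among genes with a level of at least 0.5 in the higher class, the 15 with the highest ratios were *Cxcl12*, *Dlk1*, *Crabp2*, *Ptn*, *Hand1*, *Isl1*, *Tshz2*, *Nr2f1*, *Krt18*, *Fndc3c1*, *Zfp503*, *Cadm1*, *Igdcc3*, *Efnb2* and *Armh4*.

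*Cxcl12* led with an 11.3-fold ratio of mean levels. *Dlk1*, an imprinted ligand related to Notch ligands, had levels of 2.69, 2.43, 2.73 and 2.19 against 0.188, 0.2, 0.147 and 0.175, a 9.41-fold ratio. Its 4 libraries lay within a narrow range in both classes. *Ptn*, a heparin-binding growth factor, was abundant, at 13.8, 15.9, 8.22 and 11.4 against 1.67, 1.49, 2.45 and 2.41. *Nr2f1*, a nuclear receptor of anterior mesenchyme and neural tissue, was at 1.52, 0.604, 0.774 and 0.596 against 0.107, 0.132, 0.112 and 0.107, with library 5 the highest. *Efnb2*, the ligand ephrin-B2, was at 0.366, 0.542, 0.609 and 0.537 against 0.0502, 0.0895, 0.0916 and 0.0641. *Krt18*, a keratin of simple epithelia, was at 1.19, 0.847, 1.03 and 0.43 against 0.177, 0.154, 0.0769 and 0.11, while *Epcam* was 0 by choice.

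**Figure D1:**
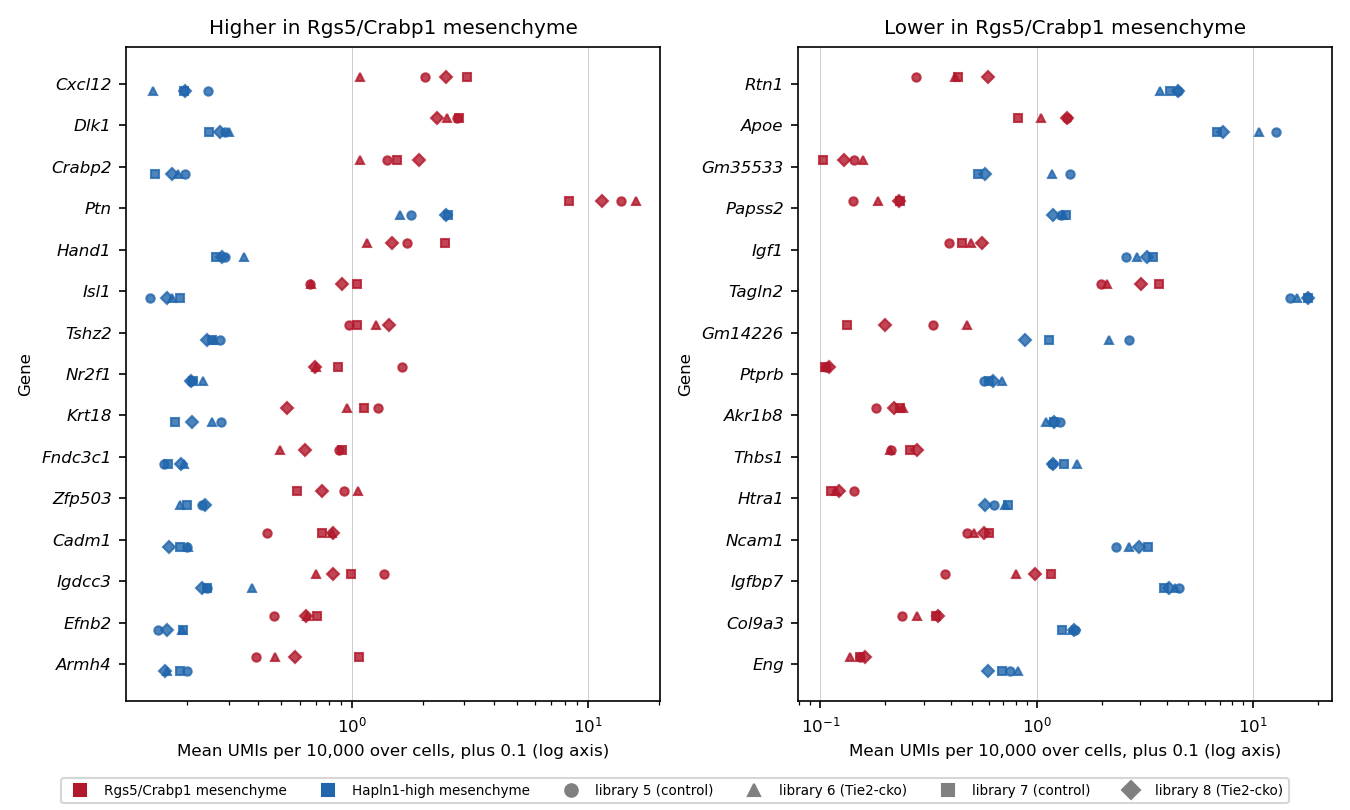
Mean UMIs per 10,000 over cells plus 0.1, on a log axis, of the 15 genes with the highest and the 15 with the lowest ratio, among genes at 0.5 or more in the higher class, between *Rgs5*/*Crabp1* mesenchyme (red) and *Hapln1*-high mesenchyme (blue); each point is 1 library. For all 30 genes the 4 red points lie on 1 side of the 4 blue points, which is part of how the genes were picked.

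The genes lower in the *Rgs5*/*Crabp1* mesenchyme, at the same minimum of 0.5, were led by *Rtn1*, an endoplasmic reticulum protein, at 0.176, 0.319, 0.331 and 0.496 against 4.41, 3.6, 4.02 and 4.39. *Apoe*, a lipid carrier, followed at 1.28, 0.941, 0.72 and 1.28 against 12.7, 10.5, 6.69 and 7.14. *Igf1*, a growth factor, was at 0.293, 0.395, 0.35 and 0.457 against 2.48, 2.81, 3.34 and 3.15, and *Tagln2*, an actin-binding protein, at 1.88, 2.02, 3.56 and 2.92 against 14.7, 15.9, 17.8 and 17.8. In each of these genes the highest *Rgs5*/*Crabp1* library was far under the lowest *Hapln1*-high library. The other 11 were *Gm35533*, *Papss2*, *Gm14226*, *Ptprb*, *Akr1b8*, *Thbs1*, *Htra1*, *Ncam1*, *Igfbp7*, *Col9a3* and *Eng*. Of these, *Papss2* supplies the sulphate donor for proteoglycans, *Thbs1* is a matrix glycoprotein and *Ptprb* and *Eng* are best known from endothelium.

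Cushion genes set the classes apart in 1 direction. Of 12 cushion genes, 8 were lower (*Postn*, *Tbx20*, *Sox9*, *Vcan*, *Gata4*, *Has2*, *Snai2* and *Nfatc1*) and 0 higher, with a median log2 ratio of -1.27 beside 0.02 over all 8031 genes. Of those 8031 genes 2.28% were lower and 1.52% higher. *Vcan*, the large proteoglycan of cardiac jelly, had levels of 2.85, 3.85, 3.41 and 4.09 against 14.5, 16.4, 17.4 and 14.7. *Postn*, a matricellular protein of cushions, had 0.495, 0.898, 0.83 and 1.11 against 3.08, 3.28, 3.51 and 3.81. *Sox9*, a regulator of cushion and cartilage progenitors, had 0.846, 0.997, 1.56 and 1.46 against 3.07, 4.26, 4.17 and 3.61. Every gene named in this list was still detected in the *Rgs5*/*Crabp1* cells.

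The wider matrix list was divided. Of 20 matrix genes at or above 0.1, 7 were lower (*Fn1*, *Postn*, *Fbln2*, *Timp3*, *Sparc*, *Vcan* and *Has2*) and 2 were higher, *Col1a2* and *Mfap4*, beside 2.28% and 1.52% of all genes compared. *Col1a2*, a chain of fibrillar collagen I, was at 1.01, 1.73, 1.21 and 1.18 against 0.396, 0.369, 0.371 and 0.414. *Col3a1*, of collagen III, was about equal at 2.78, 2.7, 3.2 and 3.03 and 2.93, 3.6, 2.59 and 2.83. *Fn1*, fibronectin, was at 1.49, 1.98, 1.81 and 2.11 against 4.37, 4.47, 4.04 and 3.95. *Vcan*, *Postn* and *Has2* are in both lists.

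*Hox* genes, which record position along the body axis, were found in part of these cells although the choice did not use them. Of 21 *Hox* genes, 7 reached 0.1 and all 7 were higher, beside 1.52% of all genes compared: *Hoxa2*, *Hoxb2*, *Hoxa3*, *Hoxb3*, *Hoxb4*, *Hoxd4* and *Hoxa5*. *Hoxb2*, *Hoxb4* and *Hoxa2* reached 0.1 in the *Rgs5*/*Crabp1* cells alone, so no other call was open to them. The count is therefore not read as a result. *Hoxb2* had levels of 0.484, 0.65, 0.313 and 0.385 against 0.0494, 0.0316, 0.0202 and 0.0224, and *Hoxb4* had 0.292, 0.771, 0.29 and 0.391 against 0.0366, 0.0206, 0.00255 and 0.0084. *Hoxa2*, the gene of second-arch identity, had 0.35, 0.114, 0.255 and 0.218 against 0.0198, 0.0085, 0.00561 and 0.00656. *Hoxb2* and *Hoxb4* were highest in library 6, whereas *Hoxa2* was lowest there. *Hox* genes of groups 6 to 9 did not exceed 0.0219 in any library of the *Rgs5*/*Crabp1* cells, and the 7 genes that reached 0.1 belonged to groups 2 to 5.

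As a mean over 20 random thinnings to 5000 UMIs, 45.6%, 57.7%, 41.5% and 51.3% of the *Rgs5*/*Crabp1* cells had a UMI of *Hoxa2*, *Hoxb2*, *Hoxa3*, *Hoxb3*, *Hoxb4* or *Hoxd4*. The same genes were found in 4.33%, 3.05%, 1.57% and 2.43% of the *Hapln1*-high cells. These 6 were picked after the levels had been seen, from among the genes that were higher, so the contrast describes that pick. Many cells had none of the 6 at this depth, which does not show that they do not express them.

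**Figure D2:**
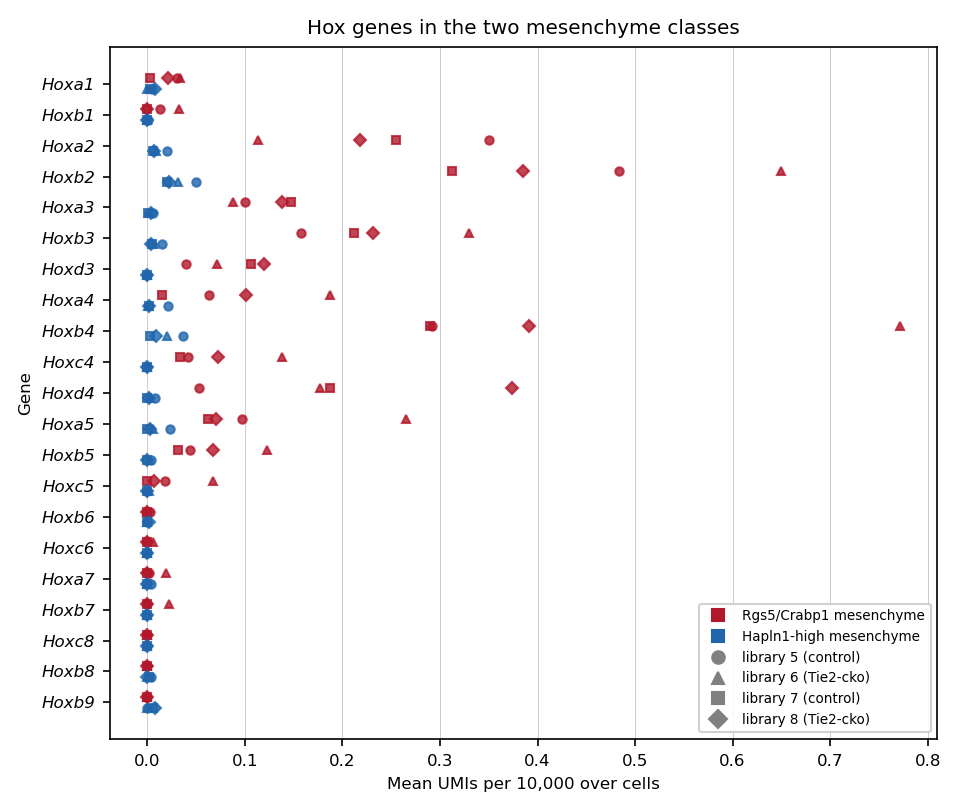
Mean UMIs per 10,000 over cells (linear axis) of 21 *Hox* genes in *Rgs5*/*Crabp1* mesenchyme (red) and *Hapln1*-high mesenchyme (blue), 1 point per library. *Hoxb4* and *Hoxb2* reach the highest levels, both in library 6, and groups 6 to 9 lie near 0.

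Arch ectomesenchyme genes were present, at low levels for *Alx1*, *Gsc* and *Dlx2*. Of 12 such genes at or above 0.1, 5 were higher than in the *Hapln1*-high class (*Dlx1*, *Dlx2*, *Dlx5*, *Alx1* and *Gsc*) and 2 were lower (*Msx1* and *Twist1*), beside 1.52% and 2.28% of all genes compared. *Alx1*, a homeobox gene of frontonasal and arch mesenchyme, was at 0.154, 0.326, 0.192 and 0.27 against 0.0007, 0.00285, 0 and 0.00243, and *Gsc*, a lower-jaw regulator, at 0.298, 0.153, 0.078 and 0.285 against 0.00844, 0, 0.000928 and 0.00736. *Dlx2*, which patterns the arches, was at 0.193, 0.163, 0.182 and 0.164 against 0.0269, 0.0506, 0.025 and 0.0175. *Twist1*, used by cushion and crest mesenchyme alike, went the other way at 2.98, 2.44, 2.02 and 2.43 against 8.25, 8.68, 9.18 and 8.79. Over the same thinnings, a mean of 33.7%, 33.1%, 28.4% and 32.1% had a UMI of *Tfap2a*, *Tfap2b*, *Dlx2*, *Dlx5*, *Alx1* or *Gsc*, the first pair of which belong to the crest list, beside 2.31%, 3.35%, 1.72% and 2.4% of the *Hapln1*-high cells. This set was picked after the levels had been seen and leaves out *Msx1* and *Twist1*, which were lower, so the contrast describes that pick.

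Genes of migrating neural crest were at low levels and highest in library 6 for all 7 reported. Of 5 at or above 0.1, *Tfap2b* was higher than in the *Hapln1*-high class and *Erbb3* was lower, beside 1.52% and 2.28% of all genes compared. *Tfap2b*, a transcription factor of the crest, was at 0.0619, 0.258, 0.138 and 0.0932 against 0.00718, 0, 0 and 0.00356, above the other class in each library, and *Erbb3*, a neuregulin receptor, was at 0.0442, 0.293, 0.13 and 0.108 against 0.433, 0.593, 0.467 and 0.525. *Sox10*, required for crest glia and pigment cells, had levels of 0.0483, 0.348, 0.0114 and 0.0206 in the *Rgs5*/*Crabp1* cells, and *Foxd3*, an early crest regulator, 0.0272, 0.205, 0 and 0. A UMI of *Sox10* or *Foxd3* was found in 9, 19, 2 and 6 cells, and both genes in 6, 17, 0 and 0. Without these 36 cells the mean levels over libraries were 2.17 for *Cxcl12* and 1.71 for *Hand1*, beside 2.08 and 1.61 with them.

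Second heart field and splanchnic genes were also present. *Isl1*, a regulator of second heart field progenitors, was at 0.564, 0.57, 0.95 and 0.803 against 0.0393, 0.0712, 0.0861 and 0.0634. *Tbx1*, the pharyngeal T-box gene, was at 0.132, 0.0672, 0.131 and 0.162 against 0.00419, 0, 0 and 0, and *Ebf3*, a helix-loop-helix factor of mesoderm, at 0.371, 0.274, 0.416 and 0.42 against 0.0314, 0.00668, 0.00501 and 0.0206. All 3 were higher with no overlap, out of 4 pharyngeal mesoderm genes at or above 0.1, beside 1.52% of all genes compared. These 3 reached 0.1 in the *Rgs5*/*Crabp1* cells alone, so no other call was open to them and the count is not read as a result. Of 7 splanchnic genes at or above 0.1, 3 were higher (*Foxf1*, *Osr1* and *Ptch1*) and 1, *Gata4*, was lower, beside 1.52% and 2.28% of all genes compared. *Foxf1*, which responds to hedgehog signals in splanchnic mesoderm, was at 0.307, 0.218, 0.398 and 0.307 against 0.0153, 0.0114, 0.00671 and 0.00522, and *Ptch1*, the hedgehog receptor and a target of the pathway, at 0.779, 0.371, 0.803 and 0.748 against 0.213, 0.104, 0.17 and 0.107. *Gata4*, a zinc-finger factor also counted among the cushion genes, was at 0.221, 0.508, 0.365 and 0.383 against 1.08, 1.39, 0.992 and 0.962.

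*Wnt2* and *Tbx5*, which mark mesoderm at the inflow, differed between pairs of libraries. *Wnt2* was at 0.281, 0.634, 0.0399 and 0.0142 and *Tbx5* at 0.149, 0.379, 0.0142 and 0.0416. Libraries 5 and 6 were higher than libraries 7 and 8 for both, and each pair holds 1 control and 1 *Tie2-cko* library.

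Among the retinoic acid genes reported, *Crabp2* was higher. This protein, which carries retinoic acid to its receptors, had levels of 1.31, 0.978, 1.45 and 1.82 against 0.0955, 0.0827, 0.0456 and 0.0727. It was 1 of 4 genes at or above 0.1, and 0 were lower. The receptor *Rara* was similar, at 0.235, 0.413, 0.296 and 0.259 against 0.268, 0.314, 0.29 and 0.274. The synthesis gene *Aldh1a2* was at 0.0481, 0.218, 0.015 and 0.0289, highest in library 6, and the degrading enzyme *Cyp26b1* at 0.0157, 0.0272, 0.00576 and 0.00735.

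The chemokine axis was one-sided. While the ligand *Cxcl12* was high, its receptor *Cxcr4* had levels of 0, 0.00963, 0.00463 and 0 in the *Rgs5*/*Crabp1* cells and 0.0144, 0.0167, 0.0504 and 0.0356 in the *Hapln1*-high cells. *Ackr3*, the scavenger receptor for the same ligand, was lower in the *Rgs5*/*Crabp1* cells, at 0.0751, 0.146, 0.0375 and 0.0827 against 0.211, 0.278, 0.503 and 0.603. Among 11 signalling genes at or above 0.1, *Ptn* and *Bmp4* were higher and *Igf1* was lower. *Bmp4*, a ligand that acts on outflow and cushion cells, was at 0.498, 0.792, 1 and 0.612 against 0.186, 0.209, 0.175 and 0.22.

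Of 6 mural and smooth muscle genes at or above 0.1, 1 was higher and 0 were lower, beside 1.52% and 2.28% of all genes compared. This was *Acta2*, smooth muscle actin, at 7.79, 4.99, 13.7 and 7.97 against 2.45, 2.22, 3.1 and 3.01. *Tagln*, an actin-binding protein of smooth muscle, was at 8.23, 5.47, 19.4 and 9.88 against 5.16, 6.84, 6.48 and 7.32, with libraries overlapping. Over 20 random thinnings to 5000 UMIs, a mean of 32.3%, 32.8%, 56.3% and 44.3% of the cells had UMIs of both genes, beside 40.4%, 35.6%, 51.5% and 48.8% of the *Hapln1*-high cells, so library 7 alone was higher. *Myh11*, the myosin of mature smooth muscle, was at 0.0161, 0.00218, 0.00907 and 0.00728. The pericyte channel genes *Kcnj8* and *Abcc9* did not exceed 0.0316 in any library.

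Cells with an *Rgs5* UMI differed from the rest of the class. This division of the 731 cells into 400 with *Rgs5* (91, 43, 111 and 155) and 331 without it (135, 48, 47 and 101) was chosen after values had been seen, uses a gene of the choice, and is given with no test. The median depths were 13884, 26661, 11774 and 13302 UMIs with *Rgs5* and 16629, 29070, 11701 and 12364 without. All 331 cells without *Rgs5* had *Crabp1* by the rule. Of 7997 genes, 121 were at least 2-fold higher in the cells with *Rgs5* with no overlap between libraries (1.51%), and 8 were lower (0.1%). Divided on counts thinned to 5000 UMIs, these were 81 of 8046 (1.01%) and 11 (0.137%) in 1 random draw, and 40 to 77 and 2 to 9 over 20 other draws.

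*Tagln* had levels of 18.7, 9.92, 23.8 and 14.9 in the cells with *Rgs5* and 1.15, 1.49, 9 and 2.12 in those without, a 4.79-fold ratio of means. *Acta2* had 16.5, 9.02, 16.2 and 11.9 against 1.91, 1.38, 7.54 and 1.9. Library 7 was the highest without *Rgs5* for both, yet lay under every library with it. *Hand1* had 3.38, 1.74, 3.05 and 2.08 against 0.431, 0.445, 0.781 and 0.293, and *Cxcl12* 3.65, 1.8, 3.74 and 3.26 against 0.777, 0.248, 1.21 and 1.11. *Tbx20*, a cardiac T-box gene, had 1.13, 1.45, 1.18 and 1.4 against 0.0858, 0.125, 0.385 and 0.295, and *Gata6*, a zinc finger gene of outflow smooth muscle and mesoderm, 1.93, 2.96, 2.45 and 2.79 against 0.572, 1.25, 0.601 and 0.563. The imprinted RNA *H19* had 12.7, 11.5, 9.54 and 10.2 against 3.45, 3.57, 3.76 and 3.45, with the libraries close together on both sides.

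Cushion and matrix genes lay on the same side. Of 11 cushion genes at or above 0.1, 7 were higher in the cells with *Rgs5*, as were 9 of 19 matrix genes, and 0 of either list were lower. Over all 7997 genes 1.51% were higher and 0.1% lower. *Vcan*, *Postn* and *Has2* count in both lists, so the counts are not separate. *Vcan* had 4.48, 5.94, 4.2 and 5.42 against 1.76, 1.97, 1.55 and 2.04, and *Col3a1* 4.69, 4.11, 3.87 and 4.09 against 1.49, 1.44, 1.61 and 1.42. Both sides stayed under the *Hapln1*-high level of *Vcan*. The cells without *Rgs5* had more of *Gap43*, a growth-cone protein, at 2.13, 1.78, 1.29 and 0.819 against 0.782, 0.52, 0.505 and 0.517, of *Lix1* at 1.18, 0.905, 0.78 and 1.03 against 0.373, 0.424, 0.267 and 0.377, and of *Fabp5*, a fatty-acid carrier, at 7.85, 7.34, 4.04 and 4.19 against 3.19, 2.19, 2.4 and 2.64.

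Other lists moved with the division as well. Of 6 early response genes at or above 0.1, 3 were higher with *Rgs5* (*Atf3*, *Fos* and *Egr1*) and 0 were lower, beside 1.51% and 0.1% of all genes compared. *Egr1*, an immediate-early factor, had levels of 0.394, 0.491, 0.498 and 0.319 with *Rgs5* and 0.075, 0.197, 0.0684 and 0.161 without. *Kdr*, the endothelial VEGF receptor, had 0.199, 0.241, 0.224 and 0.213 against 0.0333, 0.0564, 0.0292 and 0.0714. The 6 endothelial genes summed to 0.373, 0.383, 0.412 and 0.542 with *Rgs5* and 0.173, 0.119, 0.265 and 0.311 without, and the 6 epithelial genes to 3.48, 2.18, 2.04 and 1.22 and to 1.11, 1.69, 0.875 and 0.345. The 5 neural genes summed to 0.785, 1.14, 0.87 and 1.07 with *Rgs5* and 0.281, 0.777, 0.755 and 0.338 without. The 6 cardiomyocyte genes summed to 19.0, 8.68, 25.4 and 22.2 with *Rgs5* and 12.2, 8.3, 25.1 and 20.6 without. All 4 sums were higher with *Rgs5* in each library, though by little for cardiomyocyte genes in libraries 6, 7 and 8. The 6 blood genes went the other way, at 36.9, 8.05, 17.8 and 6.44 with *Rgs5* and 38.6, 8.85, 18.7 and 7.56 without. Epicardial, hepatic, and macrophage and platelet sums went in no shared direction. The part of these transcripts in the division was not tested.

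**Figure D3:**
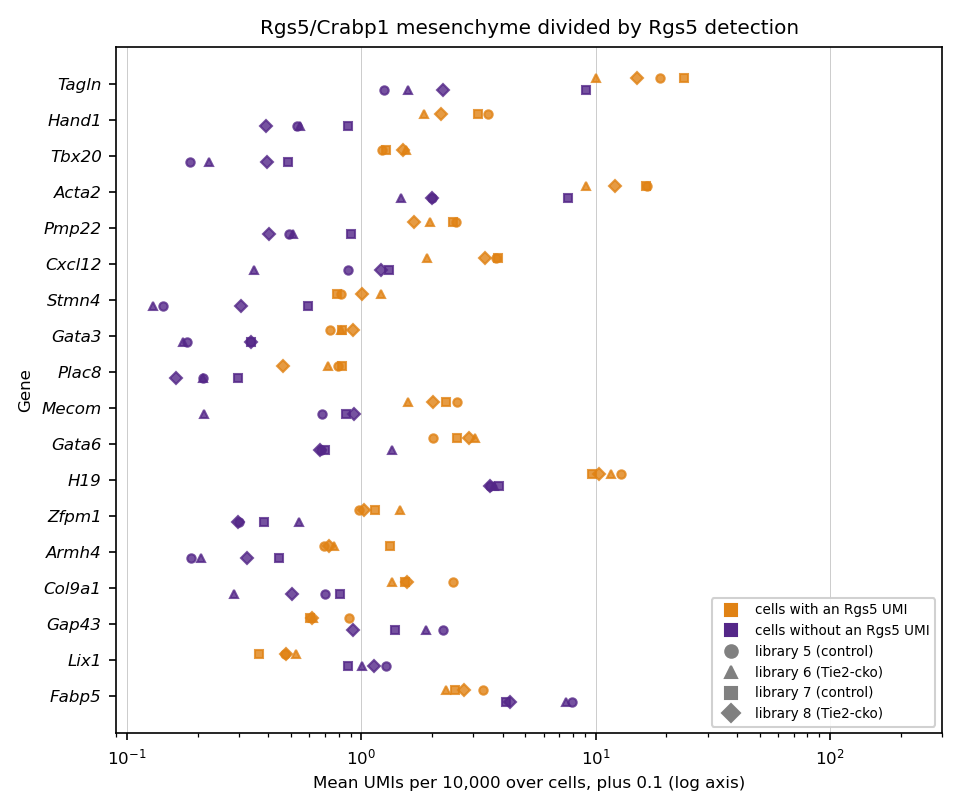
Mean UMIs per 10,000 over cells plus 0.1, on a log axis, of the 15 genes with the highest ratio and the 3 with the lowest, among genes at 0.5 or more on the higher side, between *Rgs5*/*Crabp1* cells with an *Rgs5* UMI (orange) and without one (purple); each point is 1 library. *Tagln* and *Acta2* show the purple point of library 7 closest to the orange points.

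Some marker sets, picked after the levels had been seen, divided between these cells too. They are given here as means over 20 random thinnings. *Isl1* or *Tbx1* was found in 39.4%, 31.4%, 36% and 29% of cells with *Rgs5* and in 7.11%, 9.88%, 12.4% and 21.6% of cells without it. The difference was above 0 in all 20 thinnings in each library, and in library 8 it ran from 0.974 to 13.9 percentage points. The 6 arch and crest genes named above were found in 22.1%, 19.8%, 23.9% and 23.2% with *Rgs5* and in 41.5%, 46.5%, 39.2% and 45.8% without, and were less often found with *Rgs5* in all 20 thinnings of each library. *Sox10* or *Foxd3* was found in 28.6% of the cells without *Rgs5* in library 6, with a range of 20.9% to 34.9%, and in 3.87%, 0% and 0% in libraries 5, 7 and 8. The 0 of 46 and 0 of 100 cells in libraries 7 and 8 allow shares of up to 6.52% and 3% of cells with a UMI at this depth, which does not bound the share of cells that express either gene. Cells with *Rgs5* gave 0.5%, 0.465%, 0.856% and 1.58%, beside 1.97%, 1.25%, 0.684% and 1.28% of the *Hapln1*-high cells. *Foxf1*, *Osr1*, *Wnt2* or *Tbx5* went in no shared direction, at 30.2%, 32.8%, 17.2% and 12.3% with *Rgs5* and 22.3%, 32.6%, 19% and 21.9% without. The 6 *Hox* genes were found in 42.8%, 47.7%, 37.1% and 39.7% with *Rgs5* and in 47.5%, 67.8%, 52.2% and 69% without, a mean difference below 0 in each library that was above 0 in 4 of 20 thinnings of library 5 and 1 of 20 of library 6. The ranges over thinnings cover the random draw and not the spread between libraries.

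**Figure D4:**
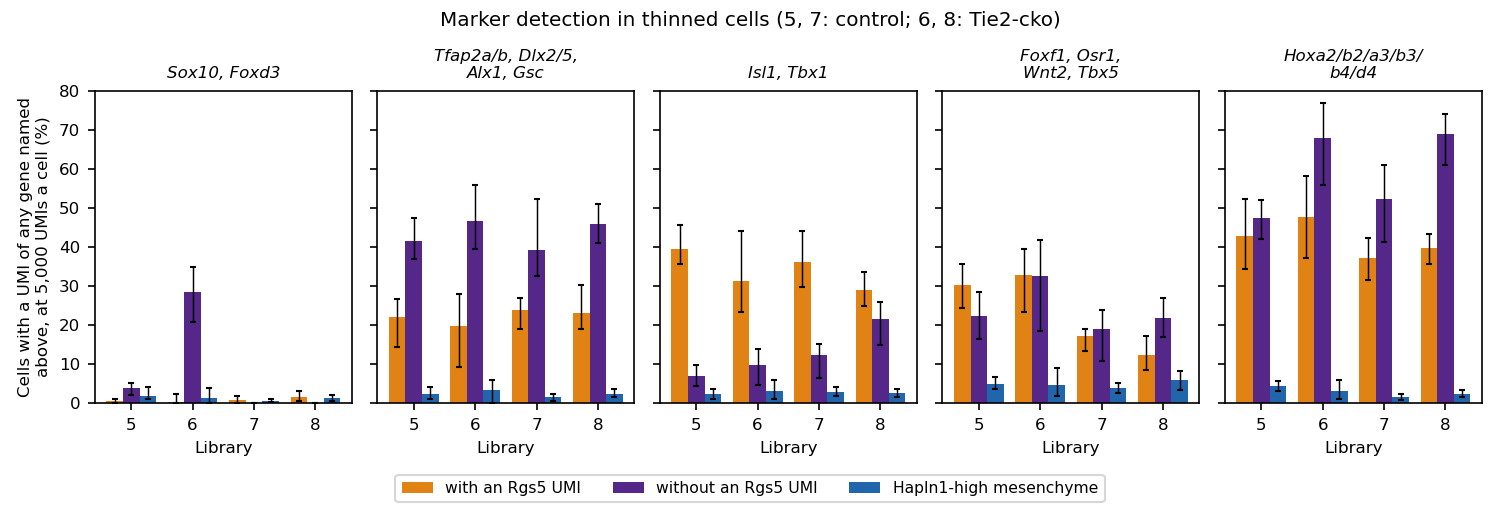
Percent of cells, each thinned to 5,000 UMIs, with a UMI of any gene named above the panel, for *Rgs5*/*Crabp1* cells with (orange) and without (purple) an *Rgs5* UMI and for *Hapln1*-high mesenchyme (blue), by library; bars are means over 20 random thinnings and whiskers their lowest and highest values. The purple bar of library 6 at 28.6% stands above the others of the first panel, and the second panel reaches 46.5% there.

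Growth and stress genes were compared in the same way, beside 1.52% higher and 2.28% lower over all 8031 genes. Of 10 cell cycle genes, only *Ccnd1*, which drives entry into S phase, differed with no overlap at 2-fold, at 1.97, 2.85, 2.06 and 2.4 against 5.15, 5.1, 5.21 and 4.81. *Mki67* was at 1.77, 1.62, 1.5 and 1.35 against 1.21, 1.37, 1.46 and 1.15. Of 6 early response genes at or above 0.1, only *Atf3* differed, at 0.17, 0.127, 0.282 and 0.161 against 0.466, 0.462, 0.526 and 0.432.

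Transcripts of other cell types were measured beside these results. The 6 blood genes summed to 37.9, 8.47, 18.1 and 6.88 in the *Rgs5*/*Crabp1* cells and to 33.9, 6.71, 14.1 and 5.70 in the *Hapln1*-high cells, with *Hba-x* the most abundant and none at 0. The 6 cardiomyocyte genes summed to 14.9, 8.48, 25.3 and 21.6 against 14.2, 6.39, 18.0 and 17.8, led by *Actc1* or *Myl7*. Both lists thus varied by library in the same order in both classes, and their part in the results was not tested. The 6 endothelial genes summed to at most 0.451, the 3 skeletal muscle genes were at 0 in libraries 5, 6 and 7, and the 5 neural genes summed to 0.484, 0.947, 0.836 and 0.78 against 1.28, 1.76, 1.48 and 1.42, led by *Tubb3* in both classes. The 6 epithelial genes summed to 2.06, 1.92, 1.69 and 0.875 against 0.947, 1.06, 0.508 and 0.589, led by the keratins *Krt18* and *Krt8*, with *Cdh1* and *Foxa2* at 0 in all 4 libraries of the *Rgs5*/*Crabp1* cells. Their part in the *Krt18* difference was not tested. The 5 epicardial genes summed to at most 0.319, and the 3 hepatic genes to 0.72, 0.316, 0.0184 and 0.42 against 0.252, 0.209, 0.0162 and 0.165. In library 7 all 6 macrophage and platelet genes were at 0, whereas *Pf4* reached 0.409 in library 5.

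Loss of endocardial *Tie2* was compared in these cells by edgeR's quasi-likelihood test on counts summed per library, 2 against 2. No gene of 10579 tested passed an adjusted p of 0.05 (0% called). An unadjusted p under 0.05 was found for 211, a smaller share of the genes than 0.05. DESeq2 called 4, all lower in *Tie2-cko*: the globin genes *Hbb-bt*, *Hbb-bh1*, *Hbb-y* and *Hba-a2*, named here after their values were seen. *Hbb-bt* had the lowest adjusted p in edgeR, with a log2 fold change of -2.09 and an adjusted p of 0.55. *Hbb-y* is 1 of the 15 genes of the choice. *Hbb-bt*, which is not, was at 0.598, 0.161, 0.61 and 0.174 in these cells and at 0.581, 0.0861, 0.415 and 0.12 in the *Hapln1*-high cells, and the control libraries lay above the *Tie2-cko* libraries in both classes. Red blood cells made up 14.0%, 11%, 7.63% and 2.14% of kept barcodes, and their part in the globin values was not tested.

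The gene lists gave 0 calls each in that test. Of the genes named above, *Cxcl12* had a mean level of 2.46 ± 0.744 over the 2 controls and 1.7 ± 1.02 over the 2 mutant libraries (± SD), and *Hand1* one of 2 ± 0.536 and 1.22 ± 0.225. Both were lowest in library 6, and the genotypes overlapped for *Cxcl12* and not for *Hand1*, as for 26.8% of all genes tested. All 7 migratory crest genes had positive log2 fold changes with a median of 0.90, beside 0.0021 over all genes, yet without library 6 only 2 of 7 were positive and the median was -0.64. The 12 *Hox* genes tested had a median of 0.83, 10 of them positive, and 0.36 with 8 of 12 positive without library 6. Of 21 matrix genes, 18 were positive with a median of 0.20, and without library 5 12 of 21 with 0.04.

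A term for libraries 5 and 6 against 7 and 8 leaves 1 residual degree of freedom. It is not a pairing that the labels or methods give. With this term edgeR called 125 of all 10579 genes tested, 62 higher and 63 lower in *Tie2-cko*. They included *Hand1*, at a log2 fold change of -0.83 (edgeR adjusted p = 0.000111), *Cxcl12* at -0.78 (0.00116), *Acta2* at -0.77 (0.00197) and *Postn* at 0.93 (3.99e-05). The same fit also called 4 of 7 migratory crest genes (*Foxd3*, *Ets1*, *Erbb3* and *Sox10*), all highest in library 6, and 5 of 5 blood genes tested. Also called were 4 of 12 *Hox* genes (*Hoxd4*, *Hoxa2*, *Hoxa4* and *Hoxb4*) and 3 of 7 mural and smooth muscle genes (*Cnn1*, *Tagln* and *Acta2*). Of the 6 cardiomyocyte genes 0 had a positive log2 fold change, the median was -0.54, and *Actc1* and *Nppa* were called. The part of these transcripts in the calls was not tested. Without library 7, 18 genes were called, all lower, among them *Pf4*, *Ttr* and the globin genes. That fit has 1 control library, which is assumed to vary like the others.

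Whether the genotype difference itself differed between the mesenchyme classes was tested with a genotype by class term and library as a block. Of 11368 genes, 0 passed (0% called), 385 had an unadjusted p under 0.05, and DESeq2 called 0 with 38 at that level. Both 385 and 38 are smaller shares of the genes than 0.05. Leaving out library 5, 7 or 8 gave 31, 41 and 6 calls.

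The share of *Rgs5*/*Crabp1* mesenchyme among kept barcodes was 2.51% in library 5 and 1.98% in library 7 (controls), beside 2.04% in library 6 and 2.86% in library 8 (*Tie2-cko*). Their 95% Wilson intervals, which cover counting error only, were 2.2% to 2.85%, 1.7% to 2.31%, 1.66% to 2.49% and 2.53% to 3.22% in that order. The means were 2.24% ± 0.369 and 2.45% ± 0.579 (SD, n = 2 each), and the genotypes overlapped (exact permutation test, two-sided, p = 0.667, where 2 against 2 libraries allow no p under 0.333). Among the cells of both mesenchyme classes, the share was 53.6% and 32.3% in controls and 47.6% and 43.8% in *Tie2-cko* (exact p = 1). The control libraries were the highest and the lowest, so the spread within controls exceeded the difference between the genotypes.

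**Figure D5:**
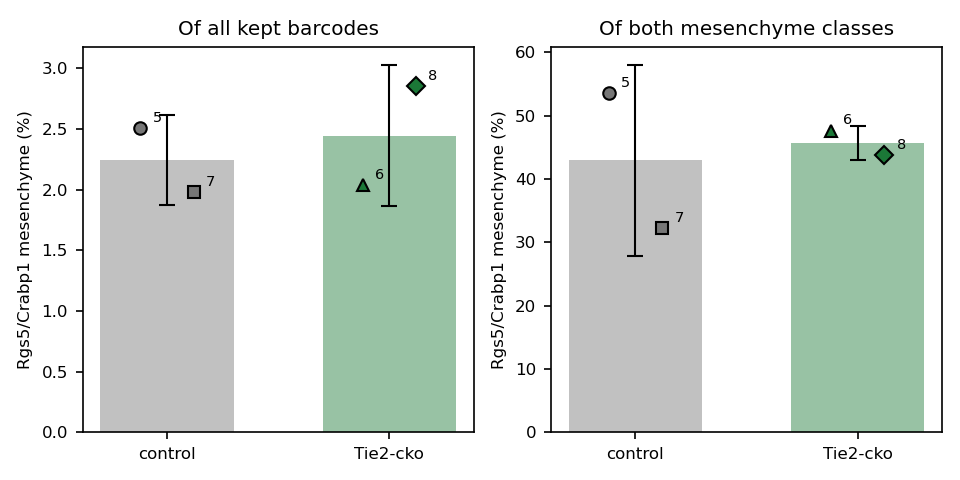
Percent of *Rgs5*/*Crabp1* mesenchyme among all kept barcodes (left) and among the cells of both mesenchyme classes (right); bars are means, error bars the SD of 2 libraries, points single libraries, with axes from 0. The points of the genotypes overlap in both panels.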

How the data were processed

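Single-cell RNA sequencing was run on 4 libraries of E10.5 hearts with the 10x Genomics Chromium system, 2 control (5 and 7) and 2 *Tie2-cko* (6 and 8). The authors deposited a matrix of raw UMI counts per gene and barcode for each library, made with Cell Ranger 6.1.2 per the file headers and genome mm10 per the submitters' processing notes; the annotation is not given in the sources used here. The counts carry no normalization by the authors. Of 50436 deposited barcodes, 30415 with at least 1500 genes and at most 10% mitochondrial UMIs were kept, with medians of 22023, 36303, 16625 and 18758 UMIs in libraries 5, 6, 7 and 8. For reference, red blood cells had *Hbb-y* of at least 500 UMIs per 10,000, cardiomyocytes *Tnnt2* of at least 15 and less *Hbb-y*, and endothelial cells *Pecam1*, *Cdh5* and *Ecscr* together of at least 2 with less of both. Each library held 91 to 256 chosen cells, and the precision of a genotype comparison is set by 2 libraries a group.

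A level was computed within each library as UMIs per 10,000 averaged over cells. Levels are not normalized for gene length, so they were compared within a gene. Counts were summed per library and class for edgeR 4.0.16 (filterByExpr, TMM, glmQLFit and glmQLFTest, Benjamini-Hochberg), with DESeq2 1.42.0 as an alternative; shares were compared by an exact permutation test in scipy 1.17.1. Putative doublets stayed in, and removing those with the highest Scrublet scores (scanpy 1.11.5, 0.8% per 1000 barcodes) was an alternative. Thinning cells to 5000 UMIs is a random draw, so detection of gene sets was averaged over 20 draws. The genes of these sets were picked after the levels had been seen. Positions are those of GENCODE M21.

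The cells, gene lists and tests were chosen with earlier results of these data known. Named genes were, between the classes, the 15 with the largest ratio in each direction with a level of at least 0.5 in the higher class and no overlap between libraries, together with members of the lists; some genes are not reported here and are left out of the lists; between genotypes no gene met the rule of an adjusted p under 0.05. On simulated counts for the genotype comparison over 10579 genes, edgeR recovered 28% of 200 genes changed by 1 on the log2 scale and 87.5% of 200 changed by 2, and 16.4% and 6.42% of its calls were false. For the genotype by class term over 11368 genes it recovered 33% and 81%.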

Additional observations from a re-analysis of the deposited data

How the results depend on the processing

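No paired analysis was possible because the control and *Tie2-cko* libraries share no replicate number, and the methods do not say which of the littermate libraries match. The term for libraries 5 and 6 puts 1 library of each genotype in each block, but no source gives it as the pairing. Between the genotypes edgeR called 0 genes; DESeq2 called 4, no filter on low counts gave 100 (35 higher, 65 lower), and a term for libraries 5 and 6 gave 125; leaving out 1 library gave 0 to 18, the 18 without library 7, and the other alternatives gave 0. For the genotype by class term, which gave 0, no filter on low counts gave 44 and leaving out 1 library gave 0 to 41. The causes of these changes were not tested. The share difference, *Tie2-cko* minus control, was 0.202 percentage points; it was -0.174 with the choice made on barcodes thinned to 5000 UMIs, from -0.227 to 0.0818 over 20 other draws of that thinning (above 0 in 4), and ran from -0.208 to 0.611 when 1 library was left out, turning negative without library 7 or 8. Between the classes, the counts of genes stayed within 112 to 138 higher and 171 to 244 lower under every alternative run, and 0 of the 300 values of the 30 named genes reversed. Leaving out cells with *Sox10* or *Foxd3*, leaving out cells with *Xist*, and thinning cells before summing were added after seeing the data; each gave 0 genotype calls. The first brought the share difference to 0.0181 percentage points. The 20 draws were also added after seeing the data. With 2 libraries a genotype, differences of 1 on the log2 scale were mostly not detectable.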
